A study of Mus musculus with 8 samples.

Results

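Chromosomes are parted in mitosis at the kinetochore, and the 44 genes described here encode its parts and controls in Neuro2a cells, an established mouse neuroblastoma line derived from AJ mice. They were listed by name, and 43 of them have a transcript cluster on the array that carries their symbol alone, among 19938 genes measured in this way. The cluster of Hjurp, the chaperone of Cenpa, carries a further symbol, and that gene was not analysed here. By role, 14 of the measured genes belong to the inner centromere, 12 to the outer kinetochore, 6 to the spindle checkpoint, 8 to the mitotic kinases with their partners and 3 to anaphase. Anchorage dependent (AD) cells had grown attached in DMEM with serum, and anchorage independent (AI) cells had grown as tumorspheres in serum-free NeuroCult medium to which heparin, EGF and bFGF were added, and effects of attachment and of medium cannot be told apart. Both phenotypes are the same line without transgene or drug, and 4 arrays of each were compared. The labels call the 4 samples of a phenotype biological replicates, while the methods speak of replicate hybridizations, so that p-values measure the spread between these arrays, which may be partly technical.

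The kinetochore is built in layers. Nucleosomes that hold Cenpa, a histone H3 variant, mark the centromere, a set of CENP proteins sits on them throughout the cell cycle, and the Ndc80 complex in the outer layer grips the microtubules of the spindle. Until all chromosomes are attached, the checkpoint proteins hold back Cdc20, which activates the anaphase-promoting complex. Once released, that complex has securin and cyclin B destroyed, and separase cuts the sister chromatids apart. Many of these genes are transcribed mainly in late S phase, G2 and mitosis, and their transcripts are scarce in resting cells.

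All values are the authors' deposited log2 signals. Array medians ran from 5.82 to 5.92 log2 for AD and from 5.92 to 5.99 log2 for AI cells. Arrays give no counts, and their number limits the precision. Of the sympathoadrenal markers used to check the cell type, 13 of 14 were measured and Nefl and Nefm were dimmer than the median on all 8 arrays. Of the fibroblast markers 4 of 6 did so, as did 2 of 3 measured Schwann cell markers and 5 of 5 measured leukocyte markers. The summed linear signal was 11728 to 12355 in AD and 11476 to 12342 in AI arrays for the sympathoadrenal markers, 262 to 282 and 259.7 to 269 for the fibroblast markers, 300.7 to 368 and 414 to 454 for the Schwann cell markers, and 177 to 193 and 186 to 199.9 for the leukocyte markers. Of these markers, Phox2a and Th were called higher in AD cells and none of the other cell types was called. At any fold, 5 of the 13 sympathoadrenal markers had an adjusted p under 0.05 toward AD cells and 2 toward AI cells. Those toward AI cells were Chgb (log2 ratio -0.49, adjusted p = 0.000204 from limma) and Gata2 (-0.23, adjusted p = 0.0376 from limma), both under 1.5-fold. The sums of the Schwann cell markers did not overlap between the phenotypes. Erbb3, a neuregulin receptor, was the Schwann cell marker lower in AD cells, with 7.92 against 8.44 log2. Its log2 ratio was -0.52 (adjusted p = 0.0017 from limma, under 1.5-fold). Sox10 and S100b, both dimmer than the median on all arrays, had log2 ratios of 0.07 and 0.14. Their part in the results was not tested. Among the AD arrays replicate 4 was unlike the rest, and limma gave it the lowest array weight, 0.350 against 0.772 to 1.76 for the other 7 arrays. Counts of called genes are given with and without this array, while most ratios of single genes are from all 8 arrays.

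Many genes of the kinetochore were higher in attached cells. A gene was called when its adjusted p in limma was under 0.05 and the ratio of the phenotypes was at least 1.5-fold. In AD cells 16 of the 43 genes were called higher and none was called lower, which left 27 without a call. Of all 35556 transcript clusters tested, 1.39% were called higher in AD cells and 2.53% lower. No gene of the set reached 2-fold. The median log2 ratio of AD over AI was 0.54 over the 43 genes and -0.00078 over all clusters, and 42 of the 43 ratios were positive. At any fold, 36 genes had an adjusted p under 0.05 toward AD cells, where 8.50% of all clusters did, and Zwint alone toward AI cells, where 9.62% did. All 4 AD arrays exceeded all 4 AI arrays for 30 of the 43 genes, against 10.6% of all clusters. A smaller share of dividing cells and less of these transcripts per dividing cell cannot be told apart in RNA of whole cultures. After the array medians were set equal, 27 of the 43 genes were called higher. Of all 35556 clusters, 731 were then called higher in AD cells, against 495 before. The share of lower calls among all called clusters moved from 64.5% to 47.0%.

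**Figure D1:**
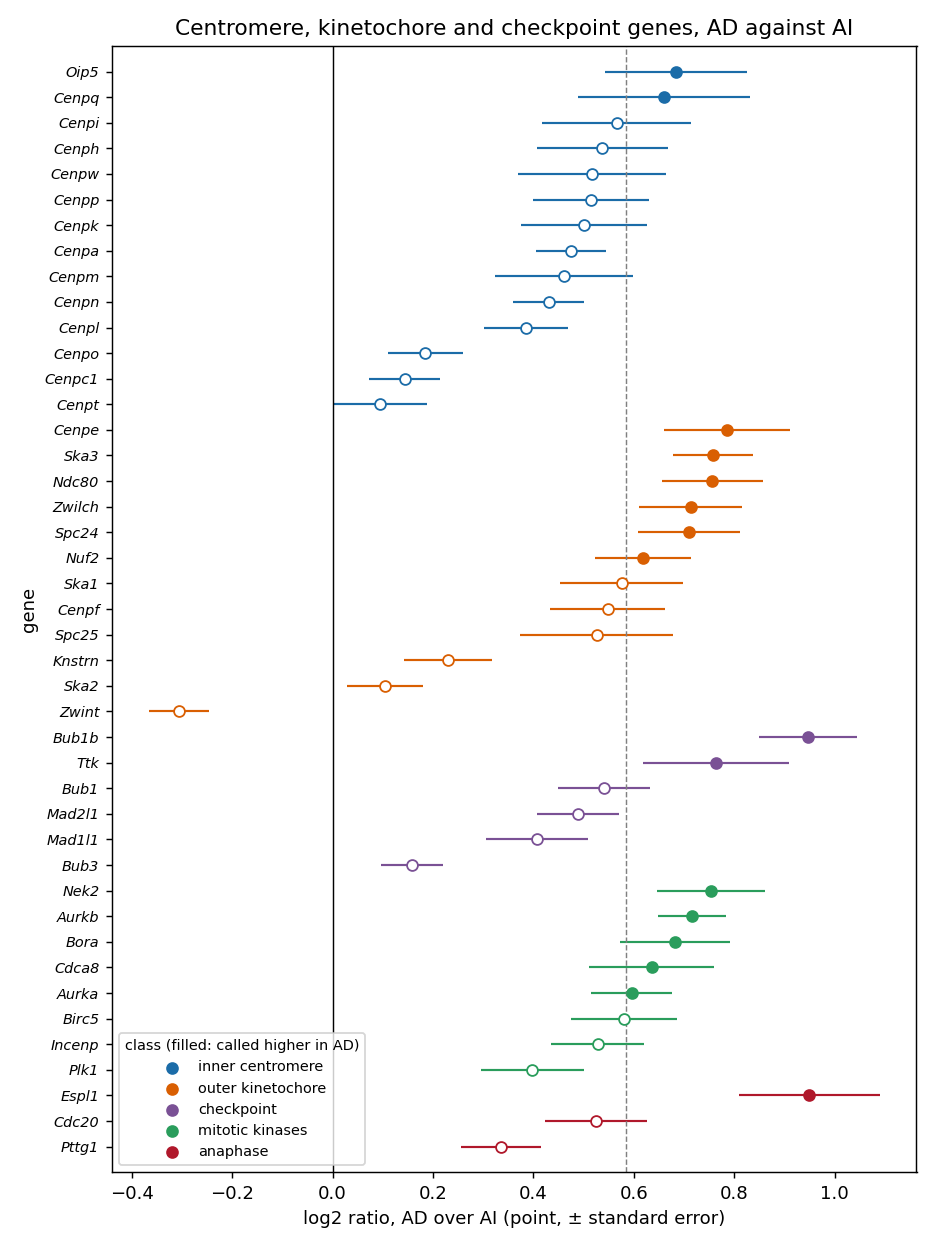
Log2 ratio of AD over AI cells for the 43 genes, grouped by class. Points are limma estimates from 4 arrays per phenotype with standard errors, filled points are called higher in AD cells, and the dashed line is the 1.5-fold limit; ratios run from -0.31 for Zwint to 0.95 for Espl1 and Bub1b.

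Genes of G2 and mitosis often carry a cell cycle homology region (CHR) in their promoter, an element bound by the DREAM and B-MYB complexes, together with CCAAT boxes bound by NF-Y. RefSeq promoters of the mouse assembly GRCm38.p6, from 250 bases before to 50 bases after the annotated start, were found for 37 of the 43 genes, with 41 promoters in all. None was found for Aurkb, Incenp, Bora, Spc24, Ska1 and Zwilch. Both strands were searched for the CHR as TTTGAA or TTCGAA, for the CCAAT box as CCAAT and for an E2F site as TTTCCCGC, TTTCGCGC, TTTGCCGC or TTTGGCGC, and matches of different motifs can share no more than an end base. A CHR was present in 48.8% of the 41 promoters, against 19.2% of 32851 promoters of all RefSeq genes and 17.6% of 21263 promoters of protein-coding genes. A CCAAT box was present in 70.7%, against 37.4% and 38.2%, and both together in 43.9%, against 7.5% and 7.1%. An E2F site was present in 4.9%, against 2.3% and 2.9%, namely in Cenpl and Cenpm. Of 21 CHR matches in these promoters 17 began within 50 bases of the start site, whereas 25.2% of the 7260 matches in all promoters did. By gene, 8 of 12 called genes and 11 of 25 genes not called had a CHR. Promoters of 1 gene can overlap, as both of Bub3 do, and then share matches. These are matches of letters, and no binding was measured.

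The promoters of the leading gene of each class are shown because these genes had the largest ratios. They are those of Espl1 (chr15:102296043-102296342, plus strand), Bub1b (chr2:118597961-118598260, plus strand), Cenpe (chr3:135212313-135212612, plus strand), Nek2 (chr1:191821223-191821522, plus strand) and Oip5 (chr2:119618456-119618755, minus strand). Each is written in the direction of the gene, and capitals mark CHR and CCAAT letters on either strand, so that TTCAAA and ATTGG are matches on the opposite strand.
Espl1: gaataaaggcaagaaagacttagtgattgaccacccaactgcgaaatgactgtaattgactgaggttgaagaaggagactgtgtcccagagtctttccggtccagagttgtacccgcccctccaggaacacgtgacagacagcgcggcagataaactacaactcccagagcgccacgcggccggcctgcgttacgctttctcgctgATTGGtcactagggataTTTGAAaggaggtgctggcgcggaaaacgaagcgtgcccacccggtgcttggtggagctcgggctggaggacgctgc
Bub1b: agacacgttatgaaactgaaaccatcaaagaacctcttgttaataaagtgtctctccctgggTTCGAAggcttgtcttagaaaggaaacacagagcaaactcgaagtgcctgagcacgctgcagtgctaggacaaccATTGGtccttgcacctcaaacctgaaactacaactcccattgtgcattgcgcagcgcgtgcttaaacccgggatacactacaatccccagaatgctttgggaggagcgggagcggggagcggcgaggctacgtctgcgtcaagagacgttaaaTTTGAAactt
Cenpe: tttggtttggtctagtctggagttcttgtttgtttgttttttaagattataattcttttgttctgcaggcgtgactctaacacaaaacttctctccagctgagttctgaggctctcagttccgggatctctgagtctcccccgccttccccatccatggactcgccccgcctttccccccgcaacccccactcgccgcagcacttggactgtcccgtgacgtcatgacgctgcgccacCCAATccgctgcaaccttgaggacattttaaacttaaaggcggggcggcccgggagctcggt
Nek2: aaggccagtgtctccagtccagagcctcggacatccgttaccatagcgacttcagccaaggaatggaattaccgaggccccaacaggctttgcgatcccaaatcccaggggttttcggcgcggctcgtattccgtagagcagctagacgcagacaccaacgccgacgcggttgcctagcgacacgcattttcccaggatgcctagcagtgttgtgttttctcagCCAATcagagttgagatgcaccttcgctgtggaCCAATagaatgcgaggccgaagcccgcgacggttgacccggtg
Oip5: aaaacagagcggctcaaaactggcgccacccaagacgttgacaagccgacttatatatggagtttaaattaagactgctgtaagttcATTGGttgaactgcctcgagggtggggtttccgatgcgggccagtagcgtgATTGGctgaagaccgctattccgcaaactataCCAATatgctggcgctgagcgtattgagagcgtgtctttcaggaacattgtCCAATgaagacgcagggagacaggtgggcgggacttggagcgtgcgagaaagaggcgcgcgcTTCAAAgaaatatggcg
In Espl1 a CCAAT box that began 44 bases before the start was followed by a CHR 27 bases before it. Bub1b held 2 CHR matches, 188 bases before and 40 bases after the start, and Oip5 held 1 CHR, 33 bases after the start, downstream of 4 CCAAT boxes. Cenpe and Nek2 held CCAAT boxes and no CHR letters in this window.

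**Figure D2:**
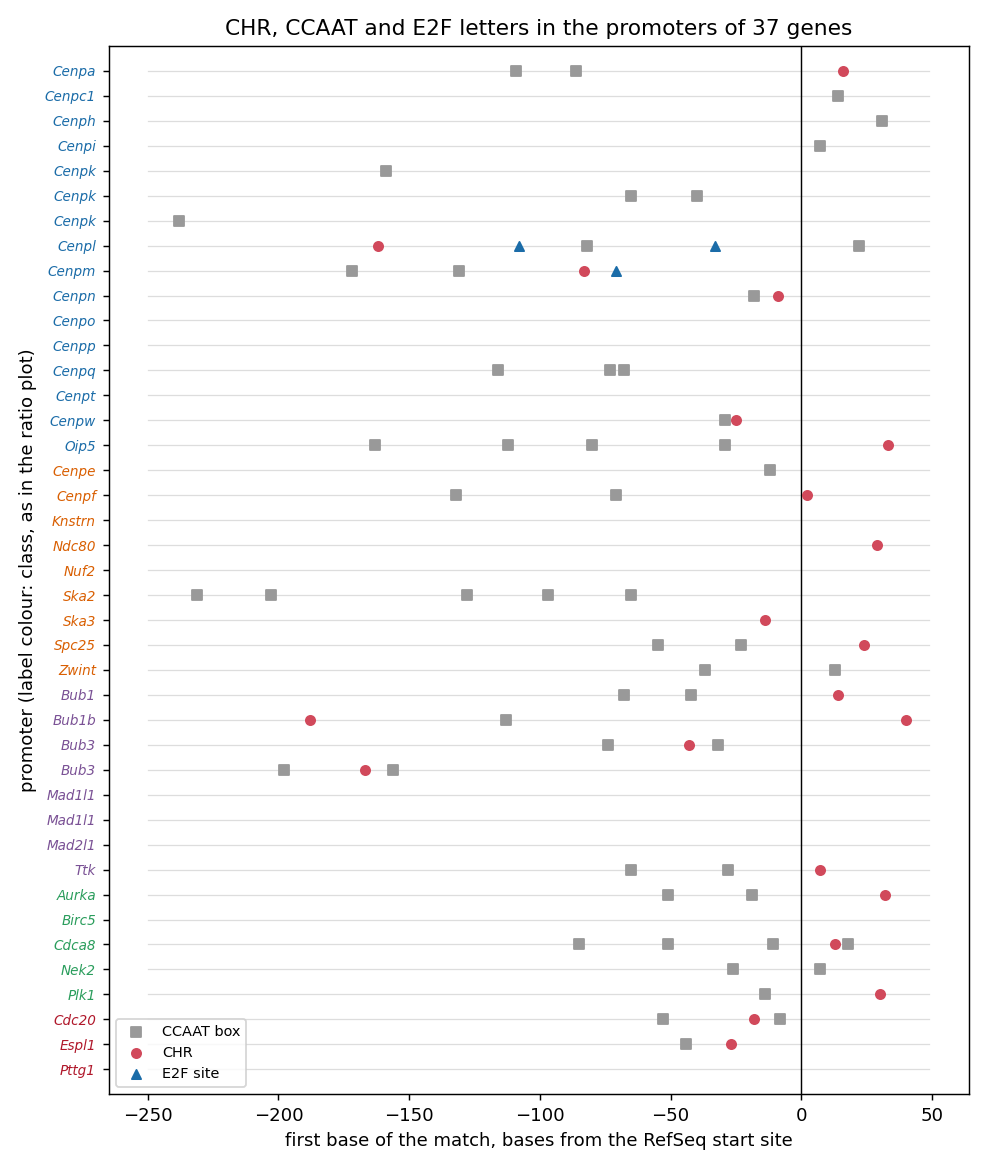
Positions of CHR, CCAAT and E2F letters in the 41 RefSeq promoters of 37 genes, as bases from the annotated start, with class colours on the gene names. CHR matches gather around the start, with 17 of 21 within 50 bases of it. Of 55 CCAAT matches, 40 began in the 150 bases before the start. The window itself holds 250 bases before and 50 bases after the start, and positions of CCAAT matches in all promoters were not counted.

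Anaphase and checkpoint genes included those with the largest ratios. Espl1 encodes separase, the protease that cuts cohesin. Its signal was 8.74, 8.96, 8.79 and 8.31 log2 in AD replicates 1 to 4 and 7.95, 7.51, 7.72 and 7.82 log2 in AI replicates 1 to 4. The AD arrays did not overlap with the AI arrays, and AD replicate 4 lay lowest among them. Espl1 rose 1.93-fold in AD cells (log2 ratio 0.95, standard error 0.14, adjusted p = 0.00182 from limma). For Pttg1, the securin that keeps separase inactive, the log2 ratio was 0.34 with an adjusted p of 0.0176 in limma, under 1.5-fold. Its AD signals ran from 8.41 to 8.65 log2 and its AI signals from 8.06 to 8.35 log2, and AD replicate 4, at 8.59, was not low. Cdc20, the activator of the anaphase-promoting complex that the checkpoint restrains, had 0.53 (adjusted p = 0.00717 from limma) and was likewise not called, with 8.02 to 8.23 log2 in AD and 7.37 to 7.84 log2 in AI arrays.

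Of the 6 checkpoint genes, 2 were called higher, against 1.39% of all clusters. In all 6 every AD array lay above every AI array, as in 10.6% of all clusters. Bub1b, which encodes BubR1, the part of the checkpoint complex that binds Cdc20, gave 9.90, 10.00, 9.89 and 9.65 log2 in AD cells and 9.06, 8.74, 8.83 and 9.04 log2 in AI cells. Its lowest AD array was thus well above its highest AI array, and it rose 1.93-fold (log2 ratio 0.95, standard error 0.10, adjusted p = 0.000256 from limma). Ttk, the Mps1 kinase that starts the checkpoint signal at unattached kinetochores, gave 8.90, 8.89, 8.92 and 8.32 log2 in AD cells and 8.19, 7.79, 7.88 and 8.11 log2 in AI cells. Here 3 AD arrays agreed closely and replicate 4 lay near the AI range, and the ratio was 1.70-fold (log2 ratio 0.76, standard error 0.15, adjusted p = 0.00644 from limma). The kinase gene Bub1 had a log2 ratio of 0.54, Mad2l1, which forms the inhibitor of Cdc20, had 0.49, and Mad1l1, its partner at the kinetochore, had 0.41, and each had an adjusted p under 0.05 in limma without reaching 1.5-fold. Bub3, a WD-repeat protein that brings Bub1 and BubR1 to the kinetochore, had 0.16 with a standard error of 0.06 (adjusted p = 0.114 from limma). For Bub3 the exact two-sided permutation test over the 8 arrays gave p = 0.0286, the smallest that 4 arrays against 4 allow. This value is not adjusted, and every gene whose arrays do not overlap has it. The smallest ratio of the checkpoint genes therefore lay beside the largest in the same pathway, and a test of the difference between genes was not made.

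**Figure D3:**
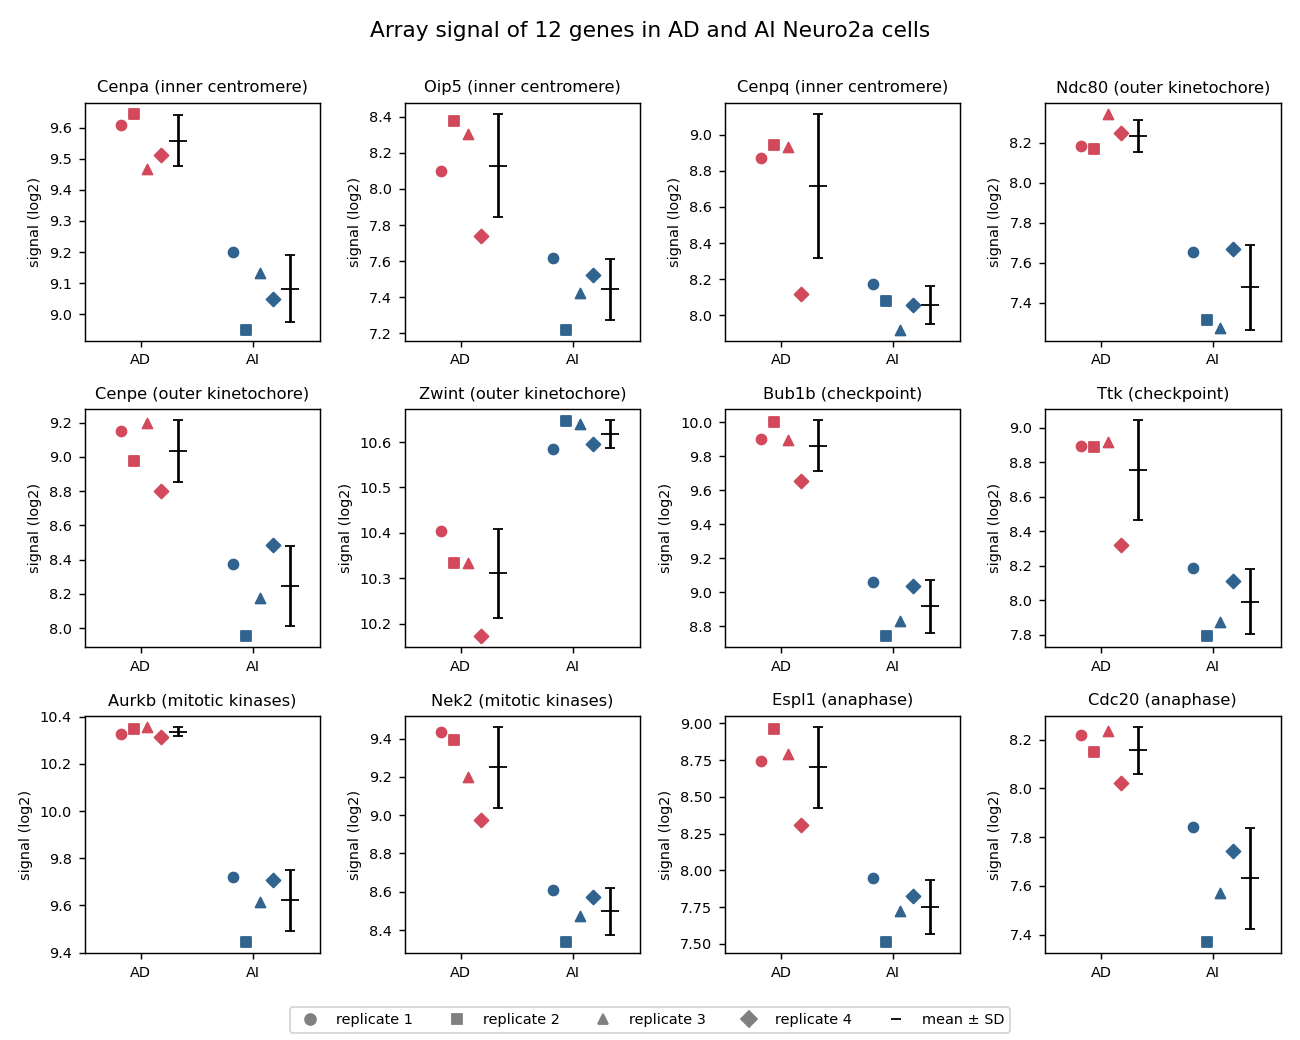
Array signal (log2) of 12 genes in AD and AI cells, each on its own scale. Each symbol is an array, symbols mark the replicate number, and bars are means with SD (n = 4); Aurkb has 4 close AD values at 10.31 to 10.36 log2, Cenpq has AD replicate 4 at 8.12 log2 beside the AI arrays, and Zwint is lower in AD than in AI cells.

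Most mitotic kinase genes were called. Of 8 genes, 5 were higher in AD cells, against 1.39% of all clusters, and the median log2 ratio of the 8 was 0.62. Nek2, a kinase that parts the centrosomes, gave 9.44, 9.39, 9.20 and 8.97 log2 in AD and 8.61, 8.33, 8.47 and 8.57 log2 in AI cells. The phenotypes did not overlap, and the ratio was 1.69-fold (log2 ratio 0.75, standard error 0.11, adjusted p = 0.00156 from limma). Aurkb, the kinase of the chromosomal passenger complex that corrects faulty attachments, gave 10.33, 10.35, 10.36 and 10.31 log2 in AD and 9.72, 9.44, 9.61 and 9.71 log2 in AI cells. Its AD arrays differed by less than those of any other gene of the set (SD 0.020), replicate 4 included, and it rose 1.64-fold (log2 ratio 0.72, standard error 0.07, adjusted p = 0.000178 from limma), the smallest adjusted p of the 43 genes. The other subunits of the complex had smaller ratios, with 0.64 for Cdca8 (borealin), which was called, 0.58 for Birc5 (survivin), just under the limit, and 0.53 for Incenp, the scaffold. Aurka, the kinase of the spindle poles, had 0.60, just above the limit, and Bora, which helps Aurka to activate Plk1, had 0.68, and both were called. Plk1 itself, with roles from mitotic entry to cytokinesis, had 0.40 (standard error 0.10, adjusted p = 0.0249 from limma), with 9.72 to 10.10 log2 in AD and 9.41 to 9.73 log2 in AI arrays. Plk1 was the gene of this class whose phenotypes overlapped. Without AD replicate 2, 3 of the 8 genes were called, because Aurka and Cdca8 fell under 1.5-fold. Both calls were also lost without AI replicate 3, and that of Aurka without AI replicate 2 and under quantile normalization.

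In the outer kinetochore 6 of 12 genes were higher in AD cells, against 1.39% of all clusters, and none was called lower. Cenpe, the kinesin that carries chromosomes toward the spindle equator, gave 9.15, 8.98, 9.20 and 8.80 log2 in AD and 8.37, 7.95, 8.18 and 8.48 log2 in AI cells, without overlap. Its ratio was 1.72-fold (log2 ratio 0.79, standard error 0.13, adjusted p = 0.0028 from limma). Of the 4 subunits of the Ndc80 complex, which binds microtubules, Ndc80 rose with a log2 ratio of 0.76, Spc24 with 0.71 and Nuf2 with 0.62. Spc25 had 0.53 and was not called. The Nuf2 call was lost without AD replicate 2 and without AI replicate 2. Spc25 was called without AD replicate 4, with array weights and with median centring. The AD signals of Ndc80 were 8.18, 8.17, 8.34 and 8.25 log2 and its AI signals 7.66, 7.32, 7.28 and 7.67 log2, so that replicate 4 lay among the other AD arrays. In Spc25 the first 3 AD arrays lay at 8.66, 8.68 and 8.57 log2 and replicate 4 at 7.96, inside the AI range of 7.82 to 8.06 log2. Subunits of the same complex thus differed in AD replicate 4, and without that array the log2 ratio was 0.69 for Spc25 and 0.75 for Ndc80. The Ska complex, which keeps Ndc80 attached to shrinking microtubules, was uneven too, with 0.76 for Ska3, which was called, 0.58 for Ska1 and 0.10 for Ska2 (adjusted p = 0.406 from limma). Zwilch, a subunit of the complex that brings dynein to the kinetochore, rose with 0.71, Cenpf, a large protein of the outer layer, had 0.55, and Knstrn, which links spindle and kinetochore, had 0.23 (adjusted p = 0.109 from limma).

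Zwint ran the other way. It encodes the protein that ties the dynein-recruiting complex to the core of the outer kinetochore. Its signal was 10.40, 10.33, 10.33 and 10.17 log2 in AD cells and 10.59, 10.65, 10.64 and 10.60 log2 in AI cells, and every AD array lay below every AI array. The log2 ratio was -0.31 (standard error 0.06, adjusted p = 0.00777 from limma). Zwint was not called, since the difference did not reach 1.5-fold. The ratio ran from -0.34 to -0.23 under the 19 alternative settings. Since the arrays did not overlap, leaving out or weighting arrays could not turn its sign, and other thresholds leave the ratio as it is. Zwilch, the subunit of its binding partner, had 0.71, of the opposite sign, although this difference between the genes was not tested. In AI cells the SD of Zwint was 0.03, and AD replicate 4, at 10.17, was the AD array farthest from the AI arrays.

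With all 8 arrays, 2 of 14 inner centromere genes were called higher and none lower, against 1.39% of all clusters called higher. Without AD replicate 4, 8 of 14 were called higher, against 2.00% of all clusters. At any fold, 11 of 14 had an adjusted p under 0.05 toward AD cells with all arrays, where 8.50% of all clusters did. Cenpa gave 9.61, 9.64, 9.47 and 9.51 log2 in AD and 9.20, 8.95, 9.13 and 9.05 log2 in AI cells. The phenotypes did not overlap, and the log2 ratio was 0.48 (standard error 0.07, adjusted p = 0.00178 from limma), under 1.5-fold. Oip5 (Mis18 beta), which prepares the centromere for new Cenpa, gave 8.10, 8.38, 8.30 and 7.74 log2 in AD and 7.62, 7.22, 7.42 and 7.52 log2 in AI cells. It rose 1.61-fold (log2 ratio 0.68, standard error 0.14, adjusted p = 0.00925 from limma), with replicate 4 close to the AI arrays. Cenpq, a subunit of the CENP-O group, gave 8.87, 8.94, 8.93 and 8.12 log2 in AD and 8.18, 8.08, 7.92 and 8.06 log2 in AI cells. It was called at 1.58-fold (log2 ratio 0.66, standard error 0.17, adjusted p = 0.0268 from limma), but AD replicate 4 lay within the AI range, and the call was lost when any of AD replicates 1, 2 and 3 or AI replicates 2, 3 and 4 was left out. Cenph, Cenpi, Cenpk and Cenpm, which belong to the constitutive centromere network, had log2 ratios of 0.54, 0.57, 0.50 and 0.46. Cenpp, of the CENP-O group, had 0.51 and Cenpw, a histone-fold protein that pairs with Cenpt, had 0.52. Cenpn, which reads the Cenpa nucleosome, had 0.43 and its partner Cenpl 0.38. Lowest were Cenpo with 0.18, Cenpc1, the scaffold that joins Cenpa nucleosomes to the outer layer, with 0.14, and Cenpt, which recruits Ndc80, with 0.09, and none of these 3 had an adjusted p under 0.05 in limma (0.128, 0.207 and 0.566). Cenpl, at 6.06 ± 0.09 log2 in AI cells (SD, n = 4), and Spc24 of the outer layer, at 6.18 ± 0.18 log2, lay near the median signal of the arrays.

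The classes differed in how AD replicate 4 compared with the other AD arrays. It was the lowest AD array for 38 of the 43 genes, against 31.1% of all clusters. The mean over the 43 genes was 8.93, 8.97 and 8.94 log2 in AD replicates 1 to 3, 8.64 log2 in AD replicate 4, and 8.47, 8.22, 8.29 and 8.43 log2 in AI replicates 1 to 4. In the inner centromere the median distance from the AI mean was 0.61 log2 for the mean of AD replicates 1 to 3 and 0.15 log2 for replicate 4. The corresponding values were 0.68 and 0.46 log2 in the outer kinetochore, 0.56 and 0.32 log2 in the checkpoint, 0.70 and 0.36 log2 in the mitotic kinases, and 0.57 and 0.40 log2 in anaphase. Replicate 4 kept at least 50% of the distance in 4 of 14 inner centromere genes, 8 of 12 outer kinetochore genes, 4 of 6 checkpoint genes, 4 of 8 kinase genes and 3 of 3 anaphase genes, where Zwint counts with its distance below the AI mean. Within the inner centromere those that kept at least 50% were Cenpc1 (118%), Cenpa (87.5%), Cenpo (73.3%) and Cenpn (50.9%). Among the others Cenpp kept 30.1%, Cenpw 10.2%, Cenpm 9.75% and Cenpq 7.24%, and Cenpt lay below the AI mean (-93.1%). The distances of Cenpc1 and Cenpt were small, at 0.14 and 0.18 log2, so that their shares are unstable. In other classes Aurkb kept 95.8% and Ndc80 102%. These are values of a single array, so that the differences between classes have no replicate and no test.

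**Figure D4:**
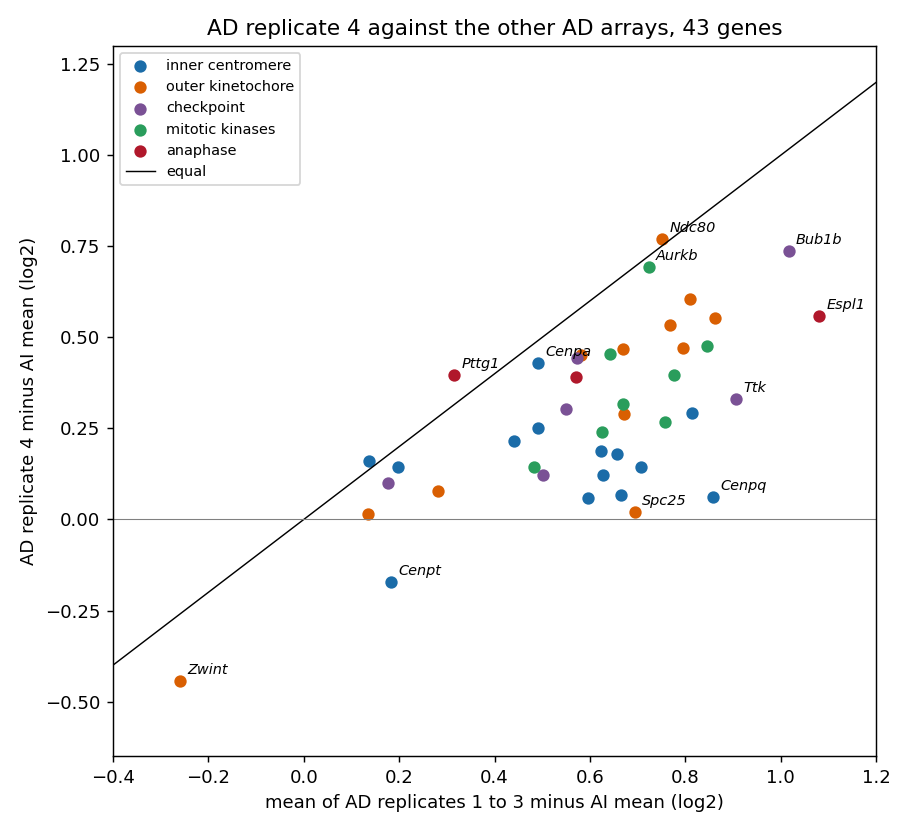
Distance of AD replicate 4 from the AI mean (vertical axis, log2) against that of the mean of AD replicates 1 to 3 (horizontal axis, log2), with a point for each of the 43 genes coloured by class. Ndc80 and Aurkb lie near the line of equality, while Cenpq and Spc25 lie near 0 on the vertical axis.

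Without AD replicate 4, 26 of the 43 genes were called higher in AD cells, where 2.00% of all clusters were. These held all 16 genes called with 8 arrays and 10 more, namely Cenph, Cenpi, Cenpk, Cenpm, Cenpp, Cenpw, Spc25, Ska1, Incenp and Birc5. By class, 8 of 14 inner centromere genes, 8 of 12 outer kinetochore genes, 2 of 6 checkpoint genes, 7 of 8 kinase genes and 1 of 3 anaphase genes were then called, and the median log2 ratio over the 43 genes was 0.64. The number of calls in the inner centromere thus moved from 2 to 8 when that array was left out. With all 8 arrays kept, it also rose with median centring, with array weights and with no minimum fold. What set AD replicate 4 apart was not tested.

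Further genes of the same machinery, listed by name, were called in the same direction and to unequal extent. Over all clusters, 1.39% were called higher in AD cells and 2.53% lower. Of 27 other centromere and kinetochore genes measured, 8 were called higher in AD cells, 19 were not called and none was called lower. Their median log2 ratio was 0.38. The ratios were 1.05 for Trip13, the ATPase that takes checkpoint complexes apart, 0.95 for Mis18a, a partner of Oip5, 0.85 for Cenpu, of the CENP-O group, 0.84 for Sgo1, which shields centromeric cohesin, and 0.74 for Knl1, the platform of Bub1 and BubR1. Of 18 regulators of mitotic entry 7 were called higher, none was lower and 11 were not called, with a median of 0.52. Mybl2, the B-MYB factor, had 1.13, the phosphatase genes Cdc25c and Cdc25a had 0.82 and 0.65, Mastl (Greatwall) had 0.66 and the spindle factor gene Tpx2 had 0.64, whereas Cdk1 had 0.54 and Foxm1 had 0.52, both not called. The anaphase-promoting complex and its partners stood lower, with 1 of 18 called higher, none lower and 17 not called, and a median of 0.13. The gene called was Fbxo5 (Emi1), an inhibitor of the complex, with 0.70. The activator Fzr1 (Cdh1) had -0.07 (adjusted p = 0.417 from limma) and the ubiquitin-conjugating enzyme gene Ube2c had 0.22.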

How the data were processed

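RNA of 4 AD and 4 AI samples of Neuro2a cells was measured on Affymetrix mouse gene arrays. The values are log2 signals per transcript cluster that the authors made with Partek 6.5 and GCRMA, per the labels, and deposited for 35556 clusters. They were used as deposited. The genome build behind the clusters is not given in the sources used here. Genes were named by the platform annotation and matched by gene number to RefSeq of GRCm38.p6, which held all 43 genes with a single-symbol cluster. Each of them has 1 such cluster.

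A linear model with phenotype as its single term was fitted to the 8 arrays (lmFit and eBayes of limma 3.58.1, R 4.3.3), and p-values of all clusters were adjusted by Benjamini and Hochberg. Calls needed an adjusted p below 0.05 and at least a 1.5-fold difference. The model was also run on simulated data with independent noise and no outlying array. Its limit for recovery was set at folds larger than that of any member, so that run does not bear on the calls made here. Tables and plots used Python 3.11.15, pandas 2.3.3, numpy 2.4.6 and matplotlib 3.10.9. Members, classes and lists were chosen with earlier results of these data known. Every member was named, and from each related list up to 5 called genes with the largest ratios and 8 genes fixed by name, of which Ccnb1 had no cluster of its own symbol alone and was not analysed. Alternatives changed the scaling, the filter on dim clusters, the model, the thresholds, the replicate block and the arrays used, 1 at a time. Promoters shown are those of the 3 largest ratios and of each class leader.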

Additional observations from a re-analysis of the deposited data

Results flagged for a closer look

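In 9 of 86 groups of 4 arrays an array lay far from the other 3, where chance alone gives about 1 in 20. In 6 of the 9 that array was AD replicate 4, as the lowest. It lay at 6.86 log2 for Cenpp (others 7.26 to 7.33), 8.12 for Cenpq (others 8.87 to 8.94), 7.96 for Spc25 (others 8.57 to 8.68), 8.11 for Mad1l1 (others 8.47 to 8.51), 8.32 for Ttk (others 8.89 to 8.92) and 8.20 for Incenp (others 8.57 to 8.60). Bub3 in AD replicate 2 was high at 10.90 log2 (others 10.71 to 10.74). Among AI arrays, Cenpm in replicate 1 was high at 9.06 log2 (others 8.73 to 8.78) and Spc24 in replicate 3 was low at 5.91 log2 (others 6.24 to 6.28).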

How the results depend on the processing

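The number of the 43 genes called higher in AD cells was 16. It stayed within 1.5 times of that under quantile normalization, with dim clusters left out and under analysis of variance without moderation. The same held under trend and robust moderation, at an adjusted p under 0.01 and with the mean of a gene's clusters. It was 23 with array weights, 27 with median centring, 36 with no minimum fold and 0 at a fold of at least 2. Toward AI cells the count stayed 0, except for 1 gene (Zwint, of the outer kinetochore) with no minimum fold. The median log2 ratio of the 43 genes ran from 0.48 to 0.64 over all settings. Leaving out each array in turn gave 12 to 26 genes, with 26 without AD replicate 4, and 1 to 8 in the inner centromere, 3 to 7 among mitotic kinases and 1 to 2 in anaphase. The inner centromere count fell from 2 to 1 without AD replicates 1, 2 or 3 and AI replicates 2 or 3 and rose to 8 without AD replicate 4, the kinase count fell to 3 without AD replicate 2, and the anaphase count rose to 2 without AI replicate 1. In the inner centromere 1 gene was called at an adjusted p under 0.01 and under analysis of variance without moderation, 6 with array weights, 6 with median centring, 11 with no minimum fold and 0 at 2-fold. With no minimum fold, 5 checkpoint, 8 kinase and 3 anaphase genes passed, and 15 other centromere and kinetochore genes (and 1 toward AI cells), 5 genes of the anaphase-promoting complex list and 16 regulators of mitotic entry. At 2-fold, 0 outer kinetochore, 0 checkpoint, 0 kinase and 0 anaphase genes were called, and 1, 0 and 1 in the 3 further lists. Median centring gave 2 anaphase genes, and it turned Fzr1 to 0.0017. That setting adds the same amount to every log2 ratio, and the median over all clusters moved from -0.00078 to 0.076. The cause of the other changes was not tested beyond the thresholds themselves. Replicate numbers did not pair the arrays, since the deviations of same-numbered arrays correlated at -0.17 to 0.08 over clusters, and with the replicate block 16 genes were called, as without it.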

Other observations

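AI arrays also differed among themselves. AI replicate 2 was the lowest AI array for 29 of the 43 genes and AI replicate 3 for 11, whereas AI replicate 1 was so for 1 gene and AI replicate 4 for 2. Over all clusters the shares were 24.9%, 25.1%, 22.1% and 28.0%. The mean of the checkpoint genes was 9.30 log2 in AI replicate 2 and 9.54 log2 in AI replicate 1, and that of the outer kinetochore genes was 8.22 and 8.49 log2. No explanation was tested.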
